A study of Mus musculus with 15 samples.

Results

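The genes described are 33 transcripts of the interferon response and of antigen processing, chosen by name as known genes of these pathways and found by symbol among the 14272 named genes of the deposited table. All 33 were present, and all 33 passed the filter on low values. Their RNA was sequenced from the quadriceps of DBA/2J-mdx males, a mouse strain that lacks dystrophin and serves to model Duchenne muscular dystrophy, so every group carries the same mutation and there is no healthy comparison group. Vehicle mice were given 7 intraperitoneal DMSO injections per week. Weekly mice were given the synthetic glucocorticoid prednisone, 1 mg/kg, in 1 of the 7 injections and DMSO in the other 6, and daily mice were given 1 mg/kg prednisone in all 7. Each group holds 5 libraries, from mice of 6 months by the protocol text and about 7 months by the sample labels, and the question put to these genes is how the 2 dosing schedules differ from vehicle and from each other. No label says whether 5 libraries are 5 animals, so p-values cover the spread among libraries, whatever its source, technical or between animals.

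Interferons are secreted proteins that signal through Janus kinases to STAT and IRF transcription factors. Type I interferons act mainly through a complex that contains STAT2 and IRF9, which binds the interferon-stimulated response element (ISRE) and switches on antiviral effectors such as the Mx, Oas and Ifit proteins. Interferon gamma acts mainly at the gamma activated site (GAS) and is the classical inducer of guanylate binding proteins, of the immunoproteasome and of peptide loading onto MHC class I. Resting muscle fibres show little MHC class I, which is raised in inflamed and dystrophic muscle. Glucocorticoids are widely used to dampen such inflammatory programmes.

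Promoter sequences are shown first, since they set apart the members with an ISRE core from the others and several of the genes below carry one. Promoters of 25 of the 33 members were found in RefSeq (GRCm38.p6), as 29 windows of 250 bases before to 50 bases after a transcription start. Mx1, Mx2, Oas2, Usp18, Parp14, Ifi27l2a, Rtp4 and Tap2 had no entry. The ISRE core (GAAA, any 2 bases, GAAA, on either strand) occurred in 13 of the 29 windows (44.8%) against 3.44% of 32851 promoters of the same length. TTCNNNGAA (the GAS core, which reads the same way on both strands) occurred in 7 (24.1%) against 8.30%. The core of the glucocorticoid response element (GNACA, any 3 bases, TGTNC, which reads the same way on both strands) occurred in 0 against 0.475%, which says only that these letters are not in these windows. Of the members with an entry, 17 had an ISRE or a GAS core. The 6 stretches below, each 100 bases read 5′ to 3′ on the gene's strand, hold the match in capitals, or the joined run of overlapping matches.
Gbp2, plus strand of chr3:142620559-142620658, 1 ISRE core: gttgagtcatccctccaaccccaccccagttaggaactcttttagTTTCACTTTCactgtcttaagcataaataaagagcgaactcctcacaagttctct
Stat2, plus strand of chr10:128270248-128270347, 1 ISRE core: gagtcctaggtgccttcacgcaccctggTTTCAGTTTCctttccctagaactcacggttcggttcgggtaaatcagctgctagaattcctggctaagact
B2m, plus strand of chr2:122147503-122147602, 1 ISRE core: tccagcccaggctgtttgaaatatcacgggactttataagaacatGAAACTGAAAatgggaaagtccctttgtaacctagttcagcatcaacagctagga
Isg15, minus strand of chr4:156200836-156200935, 3 overlapping ISRE cores: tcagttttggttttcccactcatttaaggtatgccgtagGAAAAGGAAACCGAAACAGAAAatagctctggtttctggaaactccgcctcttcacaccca
Oas1a, minus strand of chr5:120907488-120907587, 2 overlapping ISRE cores: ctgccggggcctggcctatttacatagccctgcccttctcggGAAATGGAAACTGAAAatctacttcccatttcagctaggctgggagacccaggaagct
Psmb8, plus strand of chr17:34198052-34198151, 1 GAS core: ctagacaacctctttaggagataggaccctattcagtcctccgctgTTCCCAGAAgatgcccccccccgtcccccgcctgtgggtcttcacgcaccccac
In these stretches Isg15 and Oas1a have joined runs of several cores, while Gbp2, Stat2 and B2m have a single core. The matches are descriptions of the letters and not measured binding.

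Some members are neighbours. Psmb9, Tap1, Psmb8 and Tap2 lie within the MHC region of chromosome 17, from base 34181987 to base 34216321 (GRCm38), and the promoter windows of Psmb9 and Tap1, on opposite strands, share 275 of their 300 bases. Gbp7, Gbp3 and Gbp2 lie in that order on chromosome 3 between bases 142530342 and 142638008. Stat2 spans bases 128270559 to 128292849 of chromosome 10, Ifi27l2a bases 103442167 to 103443680 of chromosome 12, and B2m bases 122147686 to 122153083 of chromosome 2. The sources used here do not give whether reads were counted by strand. Values of the 7 members that overlap another protein-coding gene are therefore uncertain: Psmb9 and Tap1 (with each other), Irf1, Irf7, Irf9, Rtp4 and B2m. For Irf9 the overlapping gene, Rnf31, is on the same strand, so counting by strand would not separate them. The Gbp, Oas, Ifit and H2 families hold similar copies among which reads can be split, and the DBA/2J strain may differ from the reference genome in the H2 genes.

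Depth was between 2780768 and 11052552 reads per library, and 3 reads correspond to between 0.271 and 1.08 CPM (reads scaled to a fixed library total), for counting error only. The biological coefficient of variation, a measure of the spread among a group's libraries, was 3.55% in vehicle, 28.5% in weekly and 9.41% in daily. A pair of libraries stood apart. Weekly 4 was the shallowest, had 0.570% of its reads in the mitochondrial ribosomal RNA mt-Rnr2 (all others 6.23% or more), and had a summed level of 12 macrophage markers of 1849 CPM against 197 to 491 in the other weekly libraries. Daily 3 had 20.6% of its reads in Gm26924, and its scaling factor by edgeR's trimmed mean of ratios (TMM) was 0.653. The labelled tissue fits its markers, with a sum of 9 muscle fibre genes of 75840 to 78075 CPM in vehicle, 59935 to 100617 CPM in weekly libraries and 45464 to 71052 CPM in daily ones. Of 12 classical glucocorticoid targets, 6 rose and 0 fell in each prednisone group against vehicle (with TMM scaling 5 rose and 1 fell in weekly, 8 rose and 1 fell in daily), although Pdk4, a kinase of that list, was lower in every prednisone library (at most 1094 CPM) than in any vehicle library (at least 1262 CPM). Of the lymphocyte and natural killer cell markers, only Ptprc, which all leukocytes share, was in the table used here, and the others were not analysed.

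In vehicle muscle the genes were expressed at low levels, apart from 2. Per kilobase of exon, B2m, the light chain of MHC class I, stood at 67.3 CPM and Ifi27l2a, a small mitochondrial interferon-induced protein, at 53.5 CPM. The other 31 members ranged from 0.294 CPM per kilobase for Ifi44 to 6.93 for Ifi35. Isg15, a ubiquitin-like protein that is attached to other proteins during an interferon response, had only 1 to 10 reads in each vehicle library, so its changes were at the limit of detection. The plot of all members by library shows how little the vehicle libraries differed from each other and how much weekly 4, daily 2 and daily 3 differed from their groups.

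**Figure D1:**
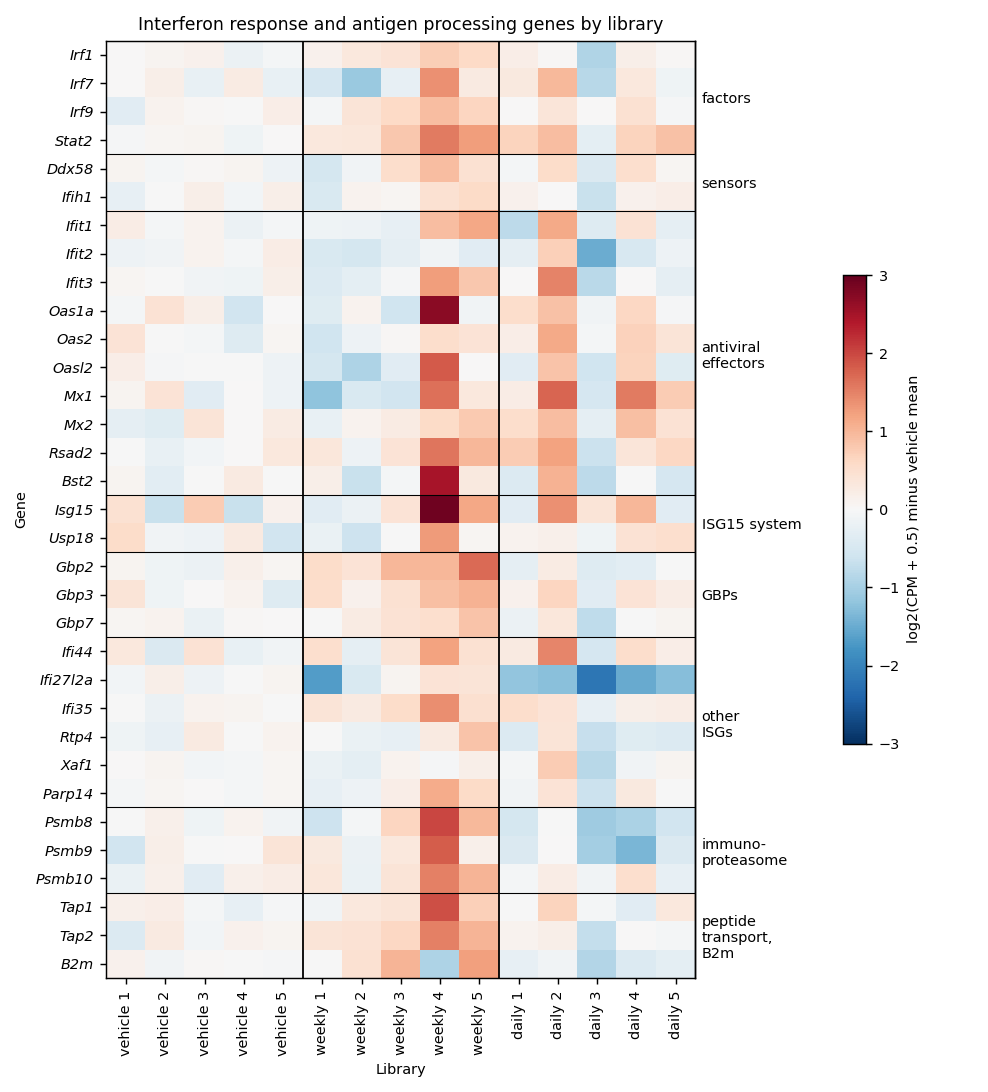
Each row is 1 of the 33 genes, ordered by role, and each column a library; colour gives log2(CPM + 0.5) minus the mean of the 5 vehicle libraries (red higher, blue lower). Weekly 4 is red for nearly all genes except B2m, daily 3 is blue for most, daily 2 is red for the antiviral effectors, and Ifi27l2a is blue in every daily library.

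With weekly prednisone, 3 of the 33 genes rose against vehicle and 0 fell. They were Gbp2, a guanylate binding protein induced by interferon gamma, Stat2, the signalling partner of IRF9, and Tap2, a subunit of the transporter that carries peptides to MHC class I. The test was limma on log2(CPM + 0.5) over all 14059 genes with Benjamini-Hochberg adjustment at 0.05, by which 6.99% of all genes rose and 1.07% fell. The share of members that rose is thus close to that of all genes. The log2 difference was above 0 for 28 of 33 members, with a median of 0.35 against 0.17 over all genes. With TMM scaling, which sets the median of all genes to about 0, it was above 0 for 23 of 33, with a median of 0.19.

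Gbp2 was at 10.2, 8.90, 8.59, 10.8 and 10.2 CPM in vehicle libraries 1 to 5, and at 14.6, 13, 19.8, 19.8 and 32.9 CPM in weekly libraries 1 to 5. Every weekly library was above every vehicle library, with weekly 5 highest. The means were 9.74 ± 0.959 and 20.02 ± 7.82 CPM (SD, n = 5 each), a log2 difference of 0.93 (SE 0.20, limma adjusted p = 0.0065). In daily libraries 1 to 5 Gbp2 was at 8.03, 11.5, 7.28, 7.74 and 9.70 CPM, a range that overlaps vehicle, and the daily mean was 8.86 ± 1.76 CPM (SD, n = 5). The log2 difference of daily from vehicle was -0.14, with a 95% interval of -0.57 to 0.28.

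Stat2 was at 14, 15.1, 15.3, 13.3 and 14.6 CPM in the vehicle libraries and at 18.2, 18.5, 25.9, 43.2 and 35.3 CPM in the weekly ones. Again the groups did not overlap, and weekly 4 was the highest. The log2 difference was 0.86 (SE 0.23, limma adjusted p = 0.0251), and 0.69 without weekly 4 (limma adjusted p = 0.0114). The call was lost without any one of the vehicle libraries (limma adjusted p from 0.0503 to 0.0629) and without weekly 5 (limma adjusted p = 0.0736). In the daily libraries Stat2 was at 23.3, 28, 11.8, 23.2 and 27.0 CPM, so that 4 of 5 lay above every vehicle library and daily 3 lay below them all. The daily difference from vehicle was 0.57 (SE 0.23) and missed the threshold in limma on all libraries at the deposited scaling (adjusted p = 0.203). It passed with TMM scaling (0.66, limma adjusted p = 0.0218) and without daily 3 (0.79, limma adjusted p = 0.0306). It also passed in limma on only the daily and vehicle libraries (adjusted p = 0.0053).

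Tap2 was at 5.96, 9.95, 7.67, 8.96 and 8.70 CPM in vehicle libraries and at 10.8, 11.1, 12.8, 24.1 and 17 CPM in weekly libraries. The groups did not overlap, and weekly 4 was again the highest. The log2 difference was 0.79 (SE 0.22, limma adjusted p = 0.0289), and 0.62 without weekly 4 (limma adjusted p = 0.0277). The call was lost without vehicle 1, 3, 4 or 5 (limma adjusted p from 0.0526 to 0.0905) and without weekly 5 (limma adjusted p = 0.0748). In the daily libraries Tap2 was at 8.86, 9.24, 4.80, 8.16 and 7.76 CPM, within or below the vehicle range.

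Groups that do not overlap were seen for 4 members in weekly against vehicle, all higher in weekly, against 11.8% of all genes (1.66% of all genes were lower without overlap, and 0 members). The fourth was Ifi35, an interferon-induced leucine zipper protein, at 10.5 to 12.9 CPM in vehicle and at 15.9, 14.6, 17.7, 32.4 and 16.8 CPM in weekly libraries. Its log2 difference of 0.62 (SE 0.19) lay just outside the threshold (limma adjusted p = 0.0504). With TMM scaling the 3 genes that rose were again Gbp2, Stat2 and Tap2 and 0 fell, where 5.73% of all genes rose and 4.18% fell. Without weekly 4 and daily 3, 7 members rose and 0 fell, where 20.3% of all genes rose and 3.63% fell. They were Gbp2, Stat2, Tap2, Ifi35, Irf1, Gbp3 and B2m, and the median over the members was then 0.15. Treating the closely spaced vehicle libraries as a single sample left 0 members called, but also only 8 of all genes, so that count says nothing particular to the members.

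**Figure D2:**
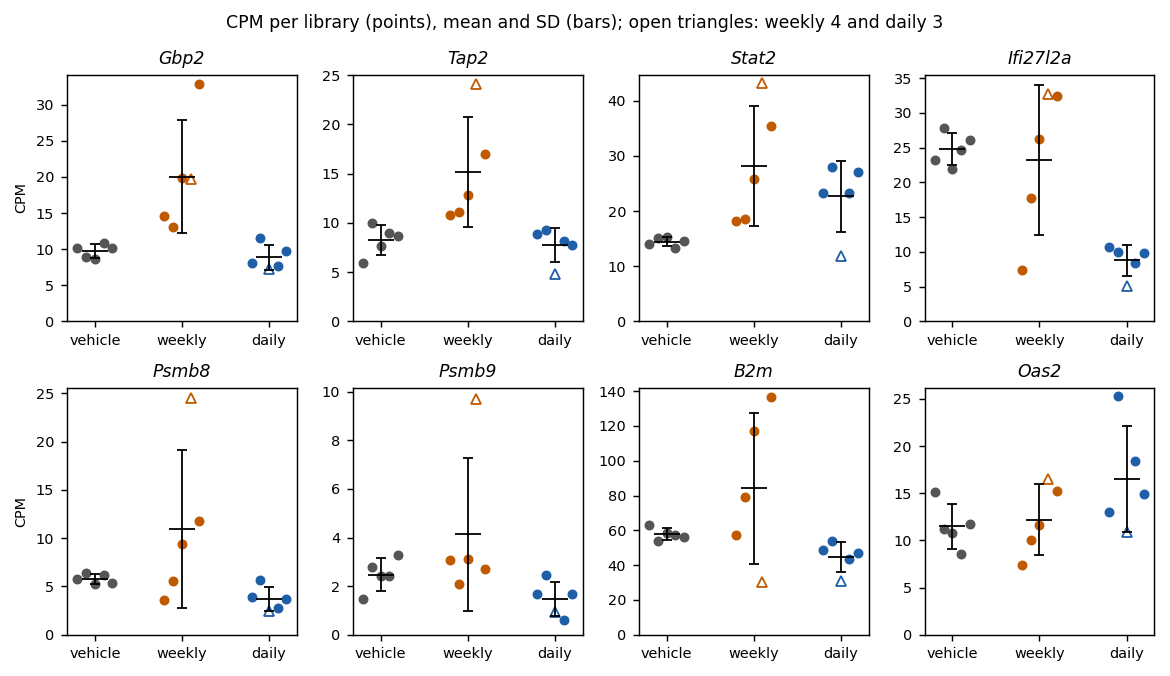
CPM per library (y axis, from 0) for 6 genes called in a comparison and for B2m and Oas2. B2m and Oas2 were called only when libraries were left out or the scaling or the test was changed. Points are libraries, bars the mean and SD of 5, and open triangles mark weekly 4 and daily 3. Gbp2 and Tap2 lie higher in all weekly than in all other libraries, and Ifi27l2a lies lower in all daily than in all vehicle libraries.

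With daily prednisone, 1 of the 33 genes fell against vehicle and 0 rose, where 2.13% of all genes fell and 1.76% rose. The gene was Ifi27l2a, at 23.3, 27.7, 22, 24.7 and 26.1 CPM in vehicle libraries and at 10.7, 10.1, 5.11, 8.37 and 9.84 CPM in daily libraries. The highest daily library lay far below the lowest vehicle library. The means were 24.8 ± 2.28 and 8.81 ± 2.23 CPM (SD, n = 5 each), a log2 difference of -1.48 (SE 0.29, limma adjusted p = 0.0037). In the weekly libraries it was at 7.34, 17.7, 26.2, 32.7 and 32.4 CPM, so weekly 1 was as low as the daily libraries while weekly 3, 4 and 5 were at or above most vehicle values, and the weekly difference from vehicle of -0.26 (SE 0.29) did not pass (limma adjusted p = 0.615). Over all members the median log2 difference of daily from vehicle was 0.07, against -0.08 over all genes.

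B2m joined Ifi27l2a as the second member whose daily libraries all lay below all vehicle libraries. This held for 8.82% of all genes, and 2.45% were higher without overlap (0 members). B2m was at 63.3, 54.1, 58.7, 57.2 and 56.0 CPM in vehicle and at 48.7, 53.7, 31.1, 43.5 and 47.1 CPM in daily libraries. The gap was narrow, and the difference of -0.38 (SE 0.27) did not pass (limma adjusted p = 0.508).

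The antiviral effectors did not pass against vehicle with daily dosing in limma on all libraries at the deposited scaling. Of these 10 members, 8 were above vehicle in daily and 2 below. They include Ifit1, Ifit2 and Ifit3, which bind viral RNA, and Oas1a, Oas2 and Oasl2, of the oligoadenylate synthetase family. The others are Mx1 and Mx2, of the Mx GTPase family, Rsad2 (viperin) and Bst2 (tetherin). In the gene annotation used here Mx2 is typed as a polymorphic pseudogene. Oas2, the member of this group with the highest mean, was at 15.1, 11.2, 10.8, 8.52 and 11.8 CPM in vehicle, at 7.34, 10.04, 11.7, 16.5 and 15.2 CPM in weekly, and at 13, 25.3, 10.8, 18.4 and 15 CPM in daily libraries. The groups overlapped, with daily 2 highest, and the daily difference from vehicle was 0.47 (SE 0.23, limma adjusted p = 0.309). It passed with DESeq2 on all libraries (0.58, DESeq2 adjusted p = 0.0398) and in limma on only those 2 groups (adjusted p = 0.0414). Mx1 was at 1.60 to 3.04 CPM in vehicle, at 0.667, 1.45, 1.31, 7.91 and 2.84 CPM in weekly, and at 2.63, 8.42, 1.39, 7.32 and 4.02 CPM in daily libraries. Daily 2 and daily 4 stood out, and the difference from vehicle of 0.75 (SE 0.43) did not pass (limma adjusted p = 0.398). It passed in limma on only the daily and vehicle libraries (adjusted p = 0.0093), a fit that called 1685 of all genes.

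The daily counts depended on the pair of libraries that stood apart. Without weekly 4 and daily 3, 7 members were called in daily against vehicle, where 17.4% of all genes were called in either direction and 6.36% fell. Mx1 (1.07), Stat2 (0.79), Rsad2 (0.74), Mx2 (0.70), Oas2 (0.60) and Ifi35 (0.34) were higher and Ifi27l2a (-1.30) lower. Daily 2, kept in that fit, was the highest daily library for Mx1, Stat2, Rsad2, Mx2 and Oas2. With all libraries 19 members were above vehicle in daily and 14 below. Without daily 2 alone 13 were above and 19 below (median -0.11), and without daily 3 alone 26 were above and 7 below (median 0.16). With TMM scaling of all libraries Stat2 rose and Ifi27l2a fell, where 5.59% of all genes rose and 3.48% fell. With the vehicle libraries averaged to a single sample, 0 members and only 3 of all genes were called.

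Daily and weekly dosing were then compared directly. Of the 33 genes 5 were lower in daily than in weekly and 0 were higher, where 8.24% of all genes were lower and 0.484% were higher. Besides Gbp2, Tap2 and Ifi27l2a these were Psmb8 and Psmb9, catalytic subunits that replace their constitutive counterparts in the immunoproteasome and change the peptides it cuts. The weekly libraries are the same as those set against vehicle above, so the 2 comparisons are not independent. The median log2 difference over the members was -0.31, against -0.24 over all genes, so most of this shift was shared by all genes.

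Gbp2 was lower in daily by -1.08 on the log2 scale (SE 0.20, limma adjusted p = 0.0028), and Tap2 by -0.89 (SE 0.22, limma adjusted p = 0.0172). These were the members whose 5 daily libraries all lay below all 5 weekly ones, which held for 6.98% of all genes (0.235% were higher without overlap, and 0 members). Ifi27l2a was lower by -1.22 (SE 0.29, limma adjusted p = 0.0134), with overlap through weekly 1. Gbp2 was called in 29 of 30 alternative analyses, Ifi27l2a in 26, Tap2 in 25, Psmb8 in 15 and Psmb9 in 14, Tap2 being lost among others without weekly 5 (limma adjusted p = 0.0516).

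Psmb8 was at 5.72, 6.44, 5.27, 6.19 and 5.31 CPM in vehicle libraries, at 3.60, 5.52, 9.36, 24.5 and 11.7 CPM in weekly libraries and at 3.88, 5.71, 2.48, 2.72 and 3.74 CPM in daily libraries. The weekly libraries spread on both sides of vehicle, with weekly 4 far above, and weekly 1 and 2 lay within or next to the daily range. The daily value was lower than weekly by -1.21 (SE 0.33, limma adjusted p = 0.0279) and than vehicle by -0.63 (SE 0.33, limma adjusted p = 0.352). The difference from vehicle passed in limma on only the daily and vehicle libraries (adjusted p = 0.0210). Psmb9, at lower counts, was at 1.46 to 3.28 CPM in vehicle, at 3.07, 2.08, 3.12, 9.71 and 2.71 CPM in weekly, and at 1.66, 2.45, 0.929, 0.628 and 1.66 CPM in daily libraries. All weekly libraries but weekly 4 lay inside its vehicle range. Its lowest daily value rests on 3 reads, and the difference from weekly was -1.12 (SE 0.33, limma adjusted p = 0.0355). Both calls against weekly were lost with TMM scaling (Psmb8 -0.97, limma adjusted p = 0.0825, and Psmb9 -0.91, limma adjusted p = 0.110). They were also lost without daily 3 (Psmb8 limma adjusted p = 0.0954, Psmb9 0.105), and without weekly 3, weekly 5, daily 4 or daily 5.

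Psmb10, the third immunoproteasome subunit, did not pass in any of the 3 comparisons. It was at 5.72, 7.49, 5.15, 7.41 and 7.91 CPM in vehicle, at 8.54, 5.70, 8.86, 19.8 and 14.1 CPM in weekly and at 6.37, 7.88, 6.20, 9.63 and 5.54 CPM in daily libraries. For Psmb10, 0 of 5 daily libraries lay below the lowest vehicle library, while for Psmb8 4 of 5 and for Psmb9 2 of 5 did.

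To take out the scaling of each library, every immunoproteasome subunit was divided by the constitutive subunit whose place it takes. The log2 ratio of Psmb9 to Psmb6 was -3.29 ± 0.640 in weekly and -4.07 ± 0.506 in daily libraries (SD, n = 5 each), a difference of -0.78 by an exact two-sided permutation test (p = 0.0476, adjusted 0.238 over 9 tests; the smallest p possible was 0.00794). The ratio of Psmb8 to Psmb5 was -2.31 ± 0.128 in vehicle, -2.02 ± 0.882 in weekly and -2.66 ± 0.375 in daily libraries. None of the 9 tests passed after adjustment, and the lowest adjusted p was 0.238. The ratio of Psmb10 to Psmb7 was higher in daily than in vehicle by 0.38 (exact permutation p = 0.0794, adjusted 0.238), the opposite side from the other pairs, of which Psmb8 to Psmb5 differed by -0.36 and Psmb9 to Psmb6 by -0.42.

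**Figure D3:**
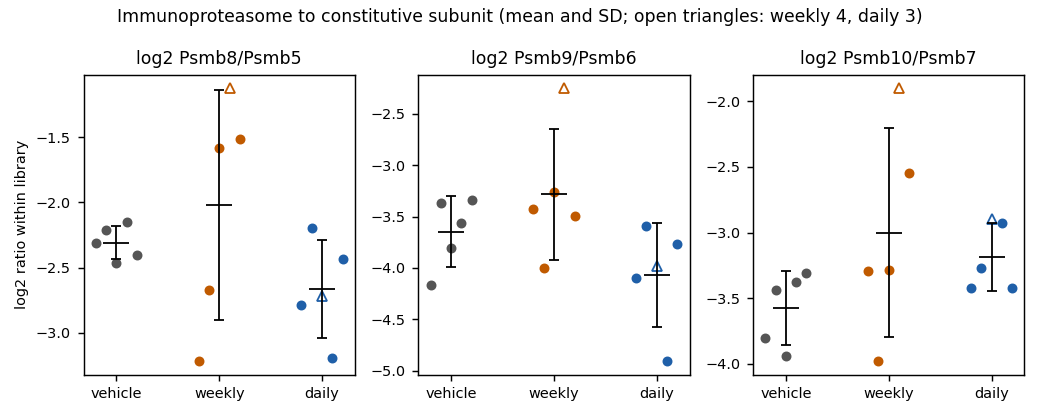
Log2 ratio within each library of an immunoproteasome subunit to the constitutive subunit it replaces; points are libraries, bars the mean and SD of 5, and open triangles mark weekly 4 and daily 3. Weekly libraries spread over the widest range in each panel, with weekly 4 the highest, and no group difference passed after adjustment.

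B2m, which is needed for MHC class I to reach the cell surface, was at 57.1, 79.3, 117, 30.2 and 137 CPM in weekly libraries 1 to 5. Weekly 4, with 84 reads, was the lowest of all 15 libraries, although 24 of the other 32 members were highest of the weekly group there (42.2% of all genes were) and H2-D1, an MHC class I heavy chain, was at 364 CPM there against 98.0 to 180 in the other weekly libraries. With weekly 4 the differences of weekly from vehicle (0.35, limma adjusted p = 0.435) and of daily from weekly (-0.74, limma adjusted p = 0.0830) did not pass. Without it they were 0.67 (limma adjusted p = 0.00531) and -1.06 (limma adjusted p = 1.23e-05).

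Leaving out weekly 4 and daily 3 gave 4 members that were lower and 4 that were higher in daily than in weekly, where 11.7% of all genes were lower and 3.01% higher. Gbp2 (-1.0), B2m (-0.93), Ifi27l2a (-0.88) and Tap2 (-0.56) were lower in daily. Mx1 (1.54), Irf7 (0.75), a factor that drives type I interferon genes, Oas1a (0.74) and Oas2 (0.67) were higher. For each of these higher genes, the omitted weekly 4 was the highest weekly library and the retained daily 2 the highest daily library. With all libraries at the deposited scaling their differences were 0.80, 0.16, 0.03 and 0.42, and none passed (limma adjusted p from 0.224 to 0.973). With TMM scaling of all libraries Gbp2, Tap2 and Ifi27l2a were lower and Oas2 higher (0.68, limma adjusted p = 0.0449), where 2.65% of all genes were lower and 2.06% higher. The median over the members was then -0.05. TMM scaling moved the median of all genes by over 0.1 in 2 comparisons, from 0.17 to 0.01 in weekly against vehicle and from -0.24 to 0.01 in daily against weekly.

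**Figure D4:**
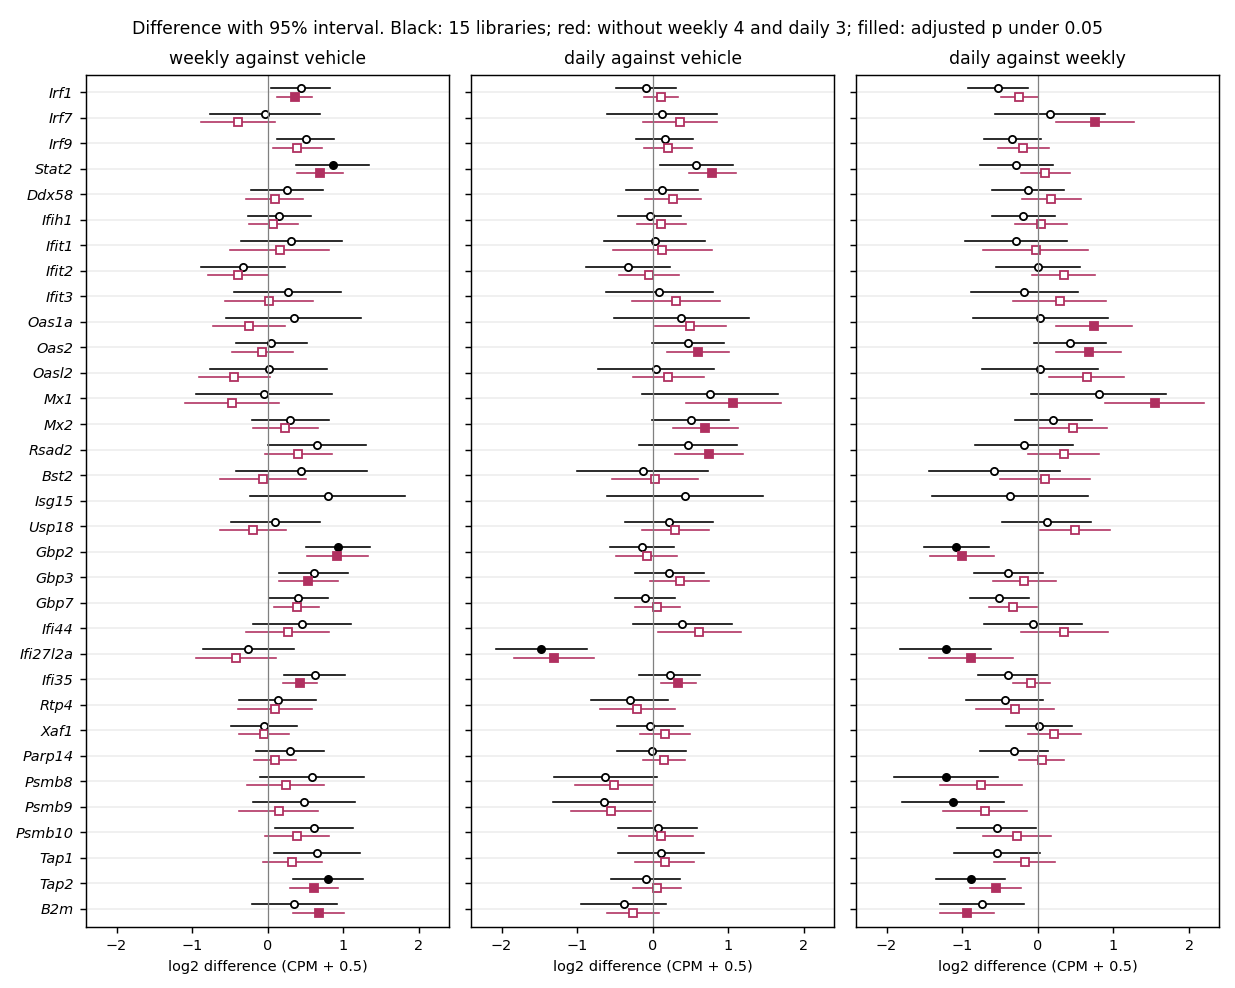
Log2 difference in CPM + 0.5 (x axis) with its 95% interval for the 33 genes in 3 comparisons; black circles use 15 libraries, red squares leave out weekly 4 and daily 3, and filled symbols have an adjusted p under 0.05. Gbp2 and Tap2 are filled in both analyses on the right and on the left, while Mx1, Oas2, Oas1a and Irf7 are filled on the right in red and open in black; Isg15 has no red square because it did not pass the filter on low values there.

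The remaining genes with the highest mean of their role group passed in no comparison with all libraries. Ddx58 (RIG-I, a sensor of viral RNA) was at 13.4, 12.2, 12.9, 13.4 and 11.3 CPM in vehicle, at 8.54, 11.8, 18.4, 24.5 and 17.5 CPM in weekly and at 12.2, 18.6, 9.14, 18.2 and 13.2 CPM in daily libraries. Both prednisone groups spread to either side of vehicle. Usp18, the protease that removes Isg15 and brakes the interferon receptor, was at 5.48, 3.28, 3.21, 4.42 and 2.26 CPM in vehicle, at 3.07, 2.17, 3.52, 9.35 and 3.74 CPM in weekly and at 3.88, 4.08, 3.25, 5.02 and 5.27 CPM in daily libraries. Apart from weekly 4 the groups overlapped. Gbp7 was at 15.2, 15.8, 12.8, 14.9 and 14.8 CPM in vehicle, at 14.6, 17.6, 20.03, 20.9 and 27.1 CPM in weekly and at 13, 18.7, 8.52, 14.4 and 15.5 CPM in daily libraries, with 4 of 5 weekly libraries above every vehicle library. Parp14, an ADP-ribosyltransferase, was at 36.6, 39.2, 38.2, 36.1 and 39.3 CPM in vehicle, at 32, 34.1, 43.6, 82.4 and 56.4 CPM in weekly and at 34.9, 50.7, 23.9, 46.7 and 37.3 CPM in daily libraries. For Parp14, weekly 1 and 2 lay below the vehicle range and weekly 3, 4 and 5 above it.

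The members not yet given by library (Irf1, Irf9, Ifih1, Ifit1, Ifit3, Mx2, Rsad2, Bst2, Gbp3, Ifi44, Rtp4, Xaf1, Tap1, Ifit2, Oasl2, Irf7, Oas1a and Isg15) passed in no comparison with all libraries. Irf1, a factor induced by interferon gamma, was 0.43 above vehicle in weekly (limma adjusted p = 0.164). Gbp3 was 0.61 above (limma adjusted p = 0.0873), and Tap1, the partner of Tap2, 0.65 above (limma adjusted p = 0.149). Over these 18 genes the log2 differences ran from -0.33 (Ifit2) to 0.79 (Isg15, with a 95% interval of -0.24 to 1.82) in weekly against vehicle, from -0.33 (Ifit2) to 0.50 (Mx2) in daily against vehicle, and from -0.58 (Bst2) to 0.20 (Mx2) in daily against weekly. Ifit2 was thus the member with the lowest weekly value, and it was called lower in weekly (-0.54, limma adjusted p = 0.0483) with TMM scaling and without weekly 4 and daily 3.

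The other genes of the pathway, from lists that hold no member, are given by their counts, to be read against the 6.99% of all genes that rose and 1.07% that fell in weekly against vehicle, 1.76% and 2.13% in daily against vehicle, and 0.484% and 8.24% in daily against weekly. Of 7 ligands, receptors and kinases tested, 0 passed in any comparison in limma (2, 0 and 2 had an unadjusted p under 0.05 in weekly against vehicle, daily against vehicle and daily against weekly). Of 11 other STAT and IRF factors and their brakes, Stat3 (0.95, limma adjusted p = 0.0021) and the phosphatase Ptpn2 (0.88, limma adjusted p = 0.0038) rose in weekly against vehicle. Of 11 sensing genes only Tmem173, which encodes STING, rose in weekly (0.77, limma adjusted p = 0.0132).

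The interferon gamma GTPases had 4 of 11 genes that rose in weekly against vehicle (6.99% of all genes) and 0 that fell. Among them Irgm2 was at 11.7 to 15.6 CPM in vehicle, 24.8 to 44.8 CPM in weekly libraries and 16.4 to 22 CPM in daily ones, without overlap between any pair of groups. Irgm2 was 1.33 above vehicle in weekly (limma adjusted p = 5.65e-05), Iigp1 1.31 and Igtp 0.91. In daily against weekly 2 of the 11, Irgm2 (-0.79, limma adjusted p = 0.0094) and Igtp (-0.75, limma adjusted p = 0.0232), fell, and in daily against vehicle 0 passed in limma (2 at an unadjusted p under 0.05). With TMM scaling Irgm2 and Igtp were no longer called in daily against weekly (limma adjusted p = 0.0783 and 0.108).

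Of 18 other genes of MHC class I presentation, 4 rose in weekly against vehicle (6.99% of all genes), 0 passed in daily against vehicle in limma (2 at an unadjusted p under 0.05) and 8 fell in daily against weekly (8.24% of all genes). Nlrc5, the transactivator of MHC class I genes, was at 11.9 to 15.9 CPM in vehicle, 23.1 to 49.5 CPM in weekly libraries and 13.3 to 25.8 CPM in daily ones, and rose by 1.19 in weekly (limma adjusted p = 0.0012). H2-D1 was at 86.5 to 96.5 CPM in vehicle, 98.0 to 364 CPM in weekly libraries and 52.5 to 86.5 CPM in daily ones. It rose in weekly by 0.80 (limma adjusted p = 0.0444; with TMM scaling 0.0680) and was lower in daily than in weekly by -1.07 (limma adjusted p = 0.0103). With TMM scaling the 8 genes that fell became 1, and the 4 that rose became 2. Of 7 MHC class II genes, H2-Aa was lower in daily than in weekly (-1.24, limma adjusted p = 0.0346), at daily values down to 0.310 CPM. That call was lost with TMM scaling (limma adjusted p = 0.0834) and without weekly 4 and daily 3 (-0.78, limma adjusted p = 0.110). Psmb5 was the only one of 3 constitutive proteasome subunits to pass, lower in daily than in weekly by -0.57 (limma adjusted p = 0.0305). It did not pass with TMM scaling (limma adjusted p = 0.164).

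Of 37 further interferon-stimulated genes tested, 5 rose in weekly, 1 rose in daily and 2 fell in daily against weekly. Ifi205, a DNA-binding protein of the p200 family, was at 1.60 to 3.65 CPM in vehicle, 3.47 to 12.1 CPM in weekly libraries and 5.58 to 9.83 CPM in daily ones. It rose by 1.32 in weekly (limma adjusted p = 0.0060) and by 1.59 in daily (limma adjusted p = 0.0018). Ifi27, a relative of Ifi27l2a, was at 18.3 to 22.6 CPM in vehicle, 27.5 to 87.5 CPM in weekly libraries and 16.4 to 23.6 CPM in daily ones. It rose in weekly by 1.24 (limma adjusted p = 0.00079) and did not differ from vehicle by more than its error in daily (0.04, SE 0.21), where Ifi27l2a fell.

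Markers of muscle fibres and of other cell types moved beside these results. The fibre sum was lower in every daily library than in any vehicle library, as Ifi27l2a and B2m were, and all 9 fibre genes had a log2 difference of daily from vehicle below 0 (median -0.31, 0 called). The sum of 8 endothelial markers was 221 to 237 CPM in vehicle, 234 to 385 CPM in weekly libraries and 143 to 234 CPM in daily ones, and weekly 5, which had the most Gbp2 and B2m, was also the highest in it. The sum of 6 adipocyte markers was 291 to 324 CPM in vehicle, 297 to 1830 CPM in weekly libraries and 102 to 225 CPM in daily ones. Weekly 5 was again the highest, and weekly 4 was the lowest of the weekly group, as for B2m. Every daily library lay below every vehicle library. Of these 6 markers, 4 rose in weekly against vehicle (6.99% of all genes). In daily, 3 fell against vehicle (2.13% of all genes) and 5 against weekly (8.24%). Macrophage markers (12 of 13 in the table) summed to 446 to 478 CPM in vehicle, 197 to 1849 CPM in weekly libraries and 274 to 551 CPM in daily ones, and to at most 491 CPM in weekly without weekly 4. For 6 fibroblast markers the sums were 1487 to 1681, 1650 to 18682 and 1511 to 2717 CPM, and at most 2484 CPM in weekly without weekly 4. The collagens Col1a1 and Col3a1 made up most of this sum, at 7723 and 10610 CPM in weekly 4. Pdgfra (125 CPM) and Pdgfrb (101 CPM) were also above all vehicle libraries there, while Dcn (96.4 CPM) and Lum (26.3 CPM) were below them all. In daily against vehicle 3 of the 6 markers were above 0 and 3 below. Of 6 dendritic cell markers the 5 in the table summed to 33.9 to 44.1, 41.6 to 161 and 38.6 to 67.6 CPM. Itgax made up most of this sum in weekly 4, at 139.5 CPM. It was at most 17.3 CPM in vehicle and at least 22.3 CPM in daily libraries. In weekly 4 Flt3 (2.16 CPM) was above all vehicle libraries and Zbtb46 (17.6 CPM) within their range. Clec9a (1.44 CPM) and Siglech (0.719 CPM) were below them all there. The median log2 difference of the 5 markers from vehicle was 0.08 in weekly and -0.06 in daily. Ptprc was at 25.9 to 38.4, 18.6 to 91.7 and 22.6 to 51.3 CPM. The part of these cells in the results was not tested, and in whole muscle fewer cells of a type and less RNA per cell cannot be told apart.

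**Figure D5:**
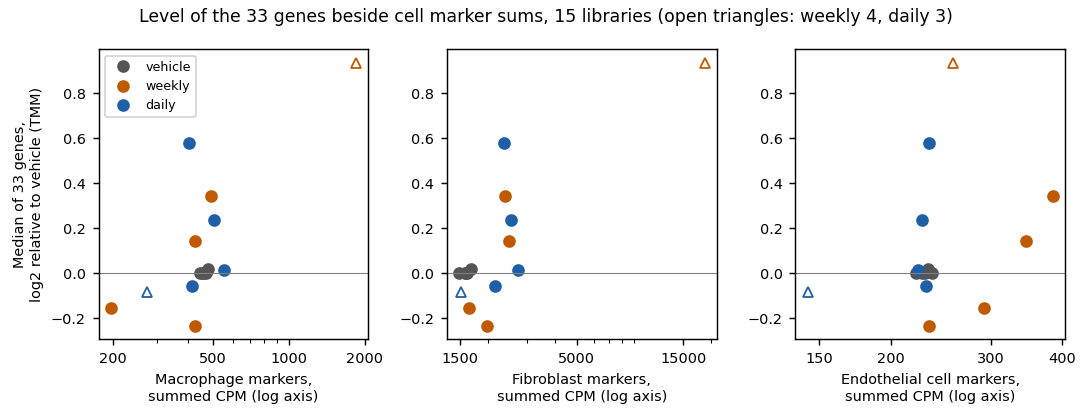
Median over the 33 genes of the log2 level relative to vehicle with TMM scaling (y axis) beside the summed CPM of macrophage, fibroblast and endothelial markers (x axes, log scale), 1 point per library; open triangles mark weekly 4 and daily 3. Weekly 4 is the highest on the y axis at 0.94 and stands apart in the macrophage and fibroblast sums, the latter mostly Col1a1 and Col3a1. Daily 2, at 0.58, lies among the others in all 3 marker sums.

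Within the prednisone groups, single libraries differed widely in these genes, unlike the vehicle libraries, whose medians over the members ran from -0.0064 to 0.019 around the vehicle mean. In weekly 4 the median member was 1.20 above the vehicle mean on the log2 scale against 0.28 for all genes, and 19 members were highest of all 15 libraries there. Relative to the mean of the other weekly libraries, weekly 4 held 9.13 times as much Oas1a, 8.79 times as much Isg15, 6.50 times as much Bst2 and 5.06 times as much Oasl2, but 0.985 times as much Gbp2 and 0.310 times as much B2m. In daily 2 the median member was 0.65 above vehicle against 0.08 for all genes, and 26 members were highest of the daily group there, against 29.8% of all genes. In daily 3, 27 members were the lowest of the daily group, against 84.1% of all genes, and with TMM scaling its median member was at -0.08.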

How the data were processed

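Total RNA of quadriceps was sequenced with a stranded kit in 15 libraries, 5 per group, of 2780768 to 11052552 reads. The submitters' processing notes name TopHat2 2.1.0, HTSeq, edgeR, mm10 and GRCm38, without saying how the authors used each. The table is named as RPKM, but the deposited values behave as CPM: 222090 of 222090 are whole multiples of 1 read, within 0.01 reads. The design had assumed RPKM, and its limma test was kept; count tests ran on the recovered reads as alternatives. Over all genes, edgeR called 1585 for weekly and 1332 for daily dosing against vehicle, where limma called 1133 and 547. Between the dosing schedules edgeR called 747 and limma 1227.

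Of 14806 features, 534 without a gene name (0.276% to 0.447% of reads per library) were left out. Values were tested as log2(CPM + 0.5), which understates changes of low genes, with limma 3.58.1 (R 4.3.3, trend, all 15 libraries in 1 fit, Benjamini-Hochberg adjustment, threshold 0.05). Genes needed 1 CPM in 5 libraries, which kept 14059 of 14272. Ratios of proteasome subunits used exact two-sided permutation tests. Intervals are at the 95% level. Alternatives were pseudocounts of 0.1 and 1, no filter, edgeR 4.0.16 (TMM scaling and its quasi-likelihood test), DESeq2 1.42.0, median centring, other sample sets and a replicate block. The scripts were tested on simulated data. Positions came from GENCODE M21 and promoters from RefSeq, both GRCm38. Pairs of vehicle libraries differed little beyond sampling noise (chi-square per degree of freedom 1.51 to 2.05), against 20.1 to 95.2 for weekly pairs and 4.93 to 231 for daily pairs. Whether the vehicle libraries are separate animals is not stated. Each was counted as a sample, so p-values against vehicle would be too small if they are repeats of fewer animals.

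The members, the gene lists and the tests were chosen with earlier results of these data known. Every member is accounted for. Values per library are given for members called in any comparison and for the one with the highest mean in each of 8 role groups, and at most 3 called genes are named from each other list. Mx1, Ifi35 and other members called only under an alternative were named after their values were seen, and so were the alternatives that join TMM scaling with another change. A single gene of the pathway lists, other than those named, is not reported here.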

Additional observations from a re-analysis of the deposited data

Results flagged for a closer look

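Of 99 sets of 5 libraries (33 genes in 3 groups), 13 had a highest or lowest library whose gap to the next, divided by the range, was above Dixon's critical value of 0.71. Chance alone gives about 1 in 20 such sets only for normally distributed values, which CPM at low reads need not be. The genes also share their libraries.

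Weekly 4 was the high library in 8 of them. It held Oas1a at 19.4 CPM, Oasl2 at 29.1 CPM, Bst2 at 17.6 CPM, Isg15 at 6.83 CPM and Usp18 at 9.35 CPM. It also held Ifi35 at 32.4 CPM, Psmb9 at 9.71 CPM and Tap1 at 33.4 CPM. These are antiviral effectors, the ISG15 pair and peptide-processing genes, and the same library had the highest sums of macrophage and fibroblast markers. The fibroblast sum was mostly Col1a1 and Col3a1, and the fibroblast markers Dcn and Lum were below all vehicle libraries there. The part of those cells was not tested.

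Daily 2 was the high library for Ifit3 at 14.8 CPM, Bst2 at 6.25 CPM and Rtp4, a chaperone induced by interferon, at 3.53 CPM. Its macrophage and fibroblast marker sums lay inside the range of the other daily libraries, and its endothelial sum, 234 CPM, was the highest of the daily group but inside the vehicle range.

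Daily 3 was the low library for Irf1 at 7.13 CPM and Ifih1, a sensor of viral RNA, at 6.51 CPM, and it was the lowest daily library for 84.1% of all genes.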

How the results depend on the processing

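In each case the count of members is followed by that of all genes called, which moved with it. In weekly against vehicle 3 members were called (1133 genes). Averaging the vehicle libraries to 1 sample left 0 (8 genes), also with TMM scaling (0, 10 genes), leaving out weekly 4 and daily 3 gave 7 (3340 genes), and TMM scaling without both gave 5 (2406 genes). Leaving out 1 library at a time gave 1 to 6. The call of Gbp2 held in each of the 15 fits that left out a library, while Stat2 and Tap2 were lost without vehicle 1, 3, 4 or 5 or weekly 5, and Stat2 also without vehicle 2. Without weekly 1, weekly 2 or daily 3 the count was 6.

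In daily against vehicle 1 member was called (547 genes). TMM scaling gave 2 (1275 genes), median centring 2 (1230), edgeR's quasi-likelihood test 2 (1332), DESeq2 3 (1596) and a fit of only those groups 5 (1685). Leaving out weekly 4 and daily 3 gave 7 with either scaling (2422 genes, or 2849 with TMM), TMM scaling without weekly 4 gave 5 (2997), and averaging the vehicle libraries gave 0 with either scaling (3 genes, or 19 with TMM). Leaving out 1 library at a time gave 1 to 2, with Stat2 added without weekly 4 or daily 3.

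In daily against weekly 5 members were called (1227 genes). A fit of only those groups gave 1 and averaging the vehicle libraries 1 (232 genes each), or 0 with TMM scaling (196). Leaving out weekly 4 and daily 3 gave 8 (2044 genes), and with TMM scaling 9 (1697), or 10 without weekly 4 alone (1884). Leaving out 1 library at a time gave 1 (without daily 3) to 7 (without weekly 4), and without weekly 3, daily 4 or daily 5 it gave 3 and without weekly 5 it gave 2. The difference of daily from weekly in the log2 ratio of Psmb10 to Psmb7 ran from -0.43 to 0.086 in those fits; from -0.19 it changed sign without weekly 4 (0.086) and without weekly 4 and daily 3 (0.014).

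With the replicate number as a block (replicate block) the counts stayed at 3, 1 and 5, and with TMM scaling and the replicate block they were 3, 2 and 3; the alternatives that join TMM scaling with another change were chosen after seeing the data. Numbers did not pair the samples: deviations of same-numbered libraries correlated at -0.029 to 0.146, above 0.1 in 1 of 5 pairs of daily and weekly and in 0 of the others, and not every library correlated best with its own number. Every other setting tried left the counts within 1.5 times these values. Depth limits Isg15, Psmb9 and Mx1 most, with as few as 1, 3 and 5 reads in a library.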
